A study of Mus musculus with 10 samples.

Results

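The Ifi200 family of DNA sensors was followed across the immune and epithelial cells of mouse livers that carried colorectal cancer metastases, in single-cell RNA libraries of 3 treatments. The family was taken by name. Of 9 listed names, 8 had a row of their own among the 32285 genes of the count matrices: Aim2, Ifi203, Ifi204, Ifi205, Ifi207, Ifi209, Ifi211 and Ifi213. The remaining name, Mnda, is a RefSeq synonym of mouse Ifi211 and has no separate value. The treatments were interferon-alpha given with an antibody against CTLA4 (combination, 1 liver, number 22), a lentiviral vector for interferon-alpha (IFNa LV, livers 18 and 23) and a control lentiviral vector (Control LV, livers 11 and 25). For the combination the labels name IFNa without saying that it came from the vector. All livers held metastases, and no untreated or antibody-only group was analysed here. Strain, age and sex are not given in the labels, nor the cells that the vector drives expression in, nor whether each numbered liver came from its own mouse. Tissue was digested with enzymes and viable cells were sorted with no antibody, so the cell types were assigned here from marker genes. The p-values measure only the spread between these 5 livers. In the combination arm, the antibody and the single liver cannot be told apart.

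Proteins of this family pair an N-terminal pyrin domain, which assembles signalling platforms, with C-terminal HIN domains that bind double-stranded DNA without reading its sequence. AIM2 binds DNA in the cytosol and recruits ASC, the adaptor encoded by Pycard, to activate caspase-1, which matures IL-1 beta and IL-18 and cleaves gasdermin D. Other members act elsewhere: p204, the product of Ifi204, resembles human IFI16 and is linked to STING signalling, and p205, the product of Ifi205, was found in mouse macrophages to act on Asc expression. Most of the family is known as interferon-induced, through a transcription factor complex that binds the interferon-stimulated response element (ISRE).

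The genes lie together on chromosome 1. In GENCODE release M21 on build GRCm38, the cluster of 13 genes spans chr1:173350879-174031810, a stretch of 680932 bases, with 10 genes on the minus strand and 3 on the plus strand. Aim2 (chr1:173350879-173466040, plus strand) stands at the centromere-proximal end. Ifi213 (chr1:173566283-173599274, minus), Ifi209 (chr1:173630917-173647928, plus), Ifi207 (chr1:173723427-173741747, minus) and Ifi204 (chr1:173747293-173766943, minus) follow. Ifi211 (chr1:173896345-173913046, minus), Ifi203 (chr1:173920407-173942672, minus) and Ifi205 (chr1:174011998-174031810, minus) stand at the far end. All 8 members are protein-coding. The model of a further cluster gene, Mndal, overlaps those of Ifi211 and Ifi203 on the same strand. Members are close paralogs, so reads shared between copies could be dropped or misplaced, and the levels of Ifi211 and Ifi203 carry that uncertainty most.

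RefSeq promoters (GRCm38.p6) were available for 7 of the 8 members, Ifi204 being the exception. They are shown because the treatment under study is an interferon and the members' responses differed. Each line gives the 150 bases upstream of a transcription start, 5′ to 3′ on the strand of the gene, and capitals mark an ISRE core, GAAA and GAAA with any 2 bases between them, searched on both strands. The windows are Ifi213 chr1:173599273-173599422 (minus), Ifi207 chr1:173741810-173741959 (minus), Ifi211 chr1:173913047-173913196 (minus), Ifi203 chr1:173942493-173942642 (minus), Ifi205 chr1:174031756-174031905 (minus), Ifi209 chr1:173630709-173630858 (plus) and Aim2 chr1:173420454-173420603 (plus).
Ifi213: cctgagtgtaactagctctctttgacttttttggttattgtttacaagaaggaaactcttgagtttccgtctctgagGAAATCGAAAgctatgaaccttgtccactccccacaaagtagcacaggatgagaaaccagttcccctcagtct
Ifi207: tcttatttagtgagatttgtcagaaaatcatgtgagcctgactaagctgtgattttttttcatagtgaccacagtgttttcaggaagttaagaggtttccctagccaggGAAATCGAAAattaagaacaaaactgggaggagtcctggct
Ifi211: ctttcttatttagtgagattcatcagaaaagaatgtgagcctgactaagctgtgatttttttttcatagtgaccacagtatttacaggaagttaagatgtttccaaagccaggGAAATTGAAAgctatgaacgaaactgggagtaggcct
Ifi203: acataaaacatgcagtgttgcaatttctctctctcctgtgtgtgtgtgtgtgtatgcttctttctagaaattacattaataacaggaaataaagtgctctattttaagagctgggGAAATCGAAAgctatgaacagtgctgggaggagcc
Ifi205: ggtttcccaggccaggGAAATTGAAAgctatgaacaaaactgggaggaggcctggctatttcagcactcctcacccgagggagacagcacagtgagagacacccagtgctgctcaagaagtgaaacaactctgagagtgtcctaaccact
Ifi209: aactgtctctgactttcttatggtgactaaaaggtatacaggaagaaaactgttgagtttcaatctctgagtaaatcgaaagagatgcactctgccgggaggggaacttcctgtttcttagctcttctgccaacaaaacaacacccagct
Aim2: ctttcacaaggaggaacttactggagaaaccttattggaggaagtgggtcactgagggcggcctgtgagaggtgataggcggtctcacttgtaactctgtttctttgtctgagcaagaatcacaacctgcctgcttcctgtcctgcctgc

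Over the full RefSeq window of 250 bases before to 50 after each start, 5 of the 7 members held the ISRE letters in at least 1 promoter, against 3.99% of all 27025 mouse genes with a RefSeq promoter. Counted by promoter it was 5 of 8, against 3.44% of 32851. The match began 73 bases before the start in Ifi213, 41 in Ifi207, 37 in Ifi211, 35 in the second of 2 Ifi203 promoters and 134 in Ifi205. Ifi205 had a second match, 23 bases after the start. Ifi209, Aim2 and the first Ifi203 promoter held no match. With 1 differing letter allowed, a search chosen after the sequences were seen, Ifi209 and Aim2 also matched, but so did 35.4% of all promoters. These are matches of letters, not measured binding.

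**Figure D1:**
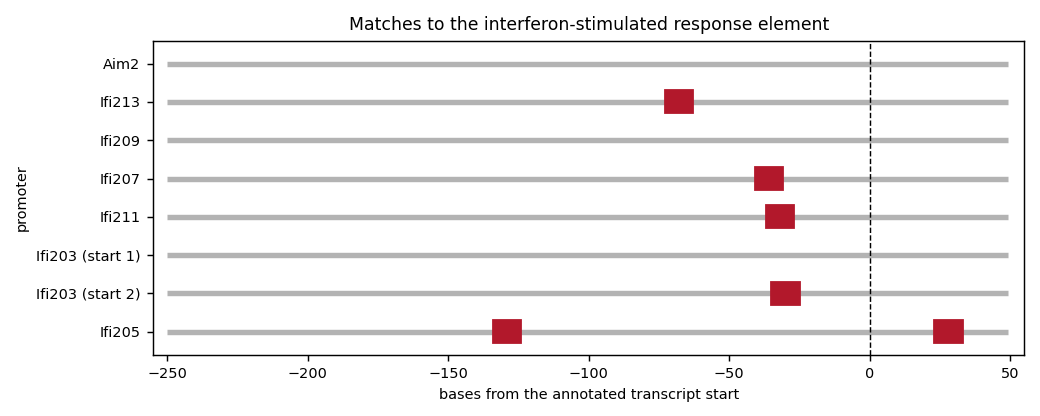
Positions of ISRE letter matches (either strand) in the 8 RefSeq promoters of 7 members, in bases from the transcription start on the horizontal axis, with 1 line per promoter. Matches in Ifi207, Ifi211 and the second Ifi203 promoter sat between 41 and 35 bases before the start. Ifi213 had its match at 73 and Ifi205 at 134 bases before it, and Ifi205 had another 23 bases after it. Ifi209, Aim2 and the first Ifi203 promoter had none.

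The 5 libraries held 9605 barcodes in the combination liver, 6290 and 5574 in the IFNa LV livers and 5707 and 863 in the Control LV livers, with median UMI counts between 4983 and 9346. Between 64.0% and 69.9% of the cells kept per library passed a marker gate. Libraries shared 4 to 83 barcodes pairwise, at most 2.2% of the smaller one. In classical monocytes, the defining mononuclear phagocyte markers summed to 16433 CPM (UMIs scaled to a total of 1000000) in the combination liver, 15281 and 13965 in the IFNa LV livers and 16681 and 18341 in the Control LV livers. Levels below are CPM of the UMIs summed over the cells of 1 type in 1 liver, and 14 cell types were tested. Control LV liver 25 gave few cells, so type 1 and mature dendritic cells and plasmacytoid cells (cDC1, mature DC, pDC) had 1 Control LV library each.

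Without IFNa, the members fell into 3 patterns over the 11 cell types that had both Control LV libraries. Ifi204, Ifi205, Ifi207 and Ifi211 were high in monocytes, macrophages and cDC2 and low in lymphocytes. Ifi203, Ifi209 and Ifi213 were present in the lymphocytes, monocytes, macrophages and cDC2 of these and low in neutrophils and epithelial cells. Aim2 varied least. Each of the 11 types was tested against the mean of the other 10, with the liver as a block (edgeR, n = 2).

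Ifi207, reported in mice to bind and stabilise STING, shows the first pattern. It had 319.8 and 315 CPM in the classical monocytes of Control LV livers 11 and 25, 317 and 288 in macrophages, 209 and 239 in cDC2 and 217 and 200.1 in non-classical monocytes. In NK cells it had 3.27 and 0 CPM, and in B cells 0.929 and 17.8. Its log2 difference from the mean of the other types was 3.91 ± 0.24 (SE) in classical monocytes (adjusted p = 2.9e-12, edgeR) and -3.88 ± 0.80 in NK cells (adjusted p = 0.00059). Neutrophils lay between, at 77.8 and 68.2 CPM, and were still above the mean of the others by 1.89 ± 0.45 (adjusted p = 0.0023).

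Ifi204 averaged 196 ± 57.2 CPM (SD, n = 2 Control LV livers) in classical monocytes, 171 ± 10.3 in macrophages, 139 ± 39.5 in non-classical monocytes, 66.5 ± 44.2 in cDC2 and 5.71 or less in each lymphocyte type. The values of the 2 monocyte types and macrophages overlapped between livers. Ifi211 followed the same order at the top, with 151 ± 63.7 CPM in classical monocytes, 137 ± 27.2 in macrophages, 89.3 ± 31 in non-classical monocytes and 86.4 ± 43.8 in cDC2. Ifi205 averaged 84.0 ± 37.9 CPM in cDC2, 66.1 ± 8.74 in non-classical monocytes, 64.3 ± 36.9 in macrophages and 54.7 ± 32.5 in classical monocytes, which overlapped. No Ifi205 UMI was seen in CD4 T cells, regulatory T cells or neutrophils of either Control LV liver. The highest Control LV level of Ifi205 was in cDC1, with 792 CPM in liver 11, the only library there, so it has no test.

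The second pattern was broad. Ifi203 averaged 248 ± 11 CPM in B cells, 246 ± 7.55 in CD4 T cells, 216 ± 55.9 in cDC2 and 171 to 189 in regulatory T cells, classical monocytes, NK cells, macrophages and CD8 T cells, against 7.34 ± 10.4 in neutrophils and 2.35 ± 0.145 in epithelial cells (SD, n = 2). Ifi209, which RefSeq also lists as Pyhin1, averaged 291 ± 23.3 CPM in B cells, 255 ± 13.6 in classical monocytes and 4.89 ± 4.22 in epithelial cells. Ifi213 ran from 88.6 ± 6.1 CPM in CD8 T cells to 27.6 ± 6.1 in NK cells among the leukocytes with 2 Control LV libraries, apart from neutrophils. In the 3 dendritic types with 1 Control LV library it stood lower, at 5.29 CPM in cDC1, 5.69 in pDC and no UMI in mature DC. Among epithelial cells it had 0.273 ± 0.386 CPM. In that type the log2 difference from the mean of the others was -5.61 ± 0.37 for Ifi203, -5.08 ± 0.41 for Ifi209 and -6.12 ± 1.15 for Ifi213 (adjusted p = 2.1e-12, 1e-10 and 5.5e-05, edgeR).

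Aim2 ran only from 49 CPM in epithelial cells to 118 in regulatory T cells, a 2.41-fold range, while Ifi203 and Ifi209 ranged over far larger folds. Its only called difference was the lower epithelial level (-0.55 ± 0.15, adjusted p = 0.0031, edgeR). Regulatory T cells had 111 and 126 CPM in Control LV livers 11 and 25, and B cells 90.7 and 91.2.

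Counted by cell type, 7 members were called above the mean in classical monocytes, where 32.5% of all 11354 genes differed in either direction, and 7 in macrophages (30.4% of all genes). The count was 5 in non-classical monocytes (17.7%) and 6 in cDC2 (23.6%), with none below the mean in these 4 types. B cells had 3 above and 3 below (37.0%), CD4 T cells 3 and 1 (19.1%), CD8 T cells 2 and 3 (27.1%), NK cells 1 and 3 (24.0%) and regulatory T cells 1 and 3 (24.0%). Neutrophils had 2 above and 3 below (29.3%), and epithelial cells 0 and 5 (61.0%). Many genes differ between cell types, so these shares are the measure of the members' counts.

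**Figure D2:**
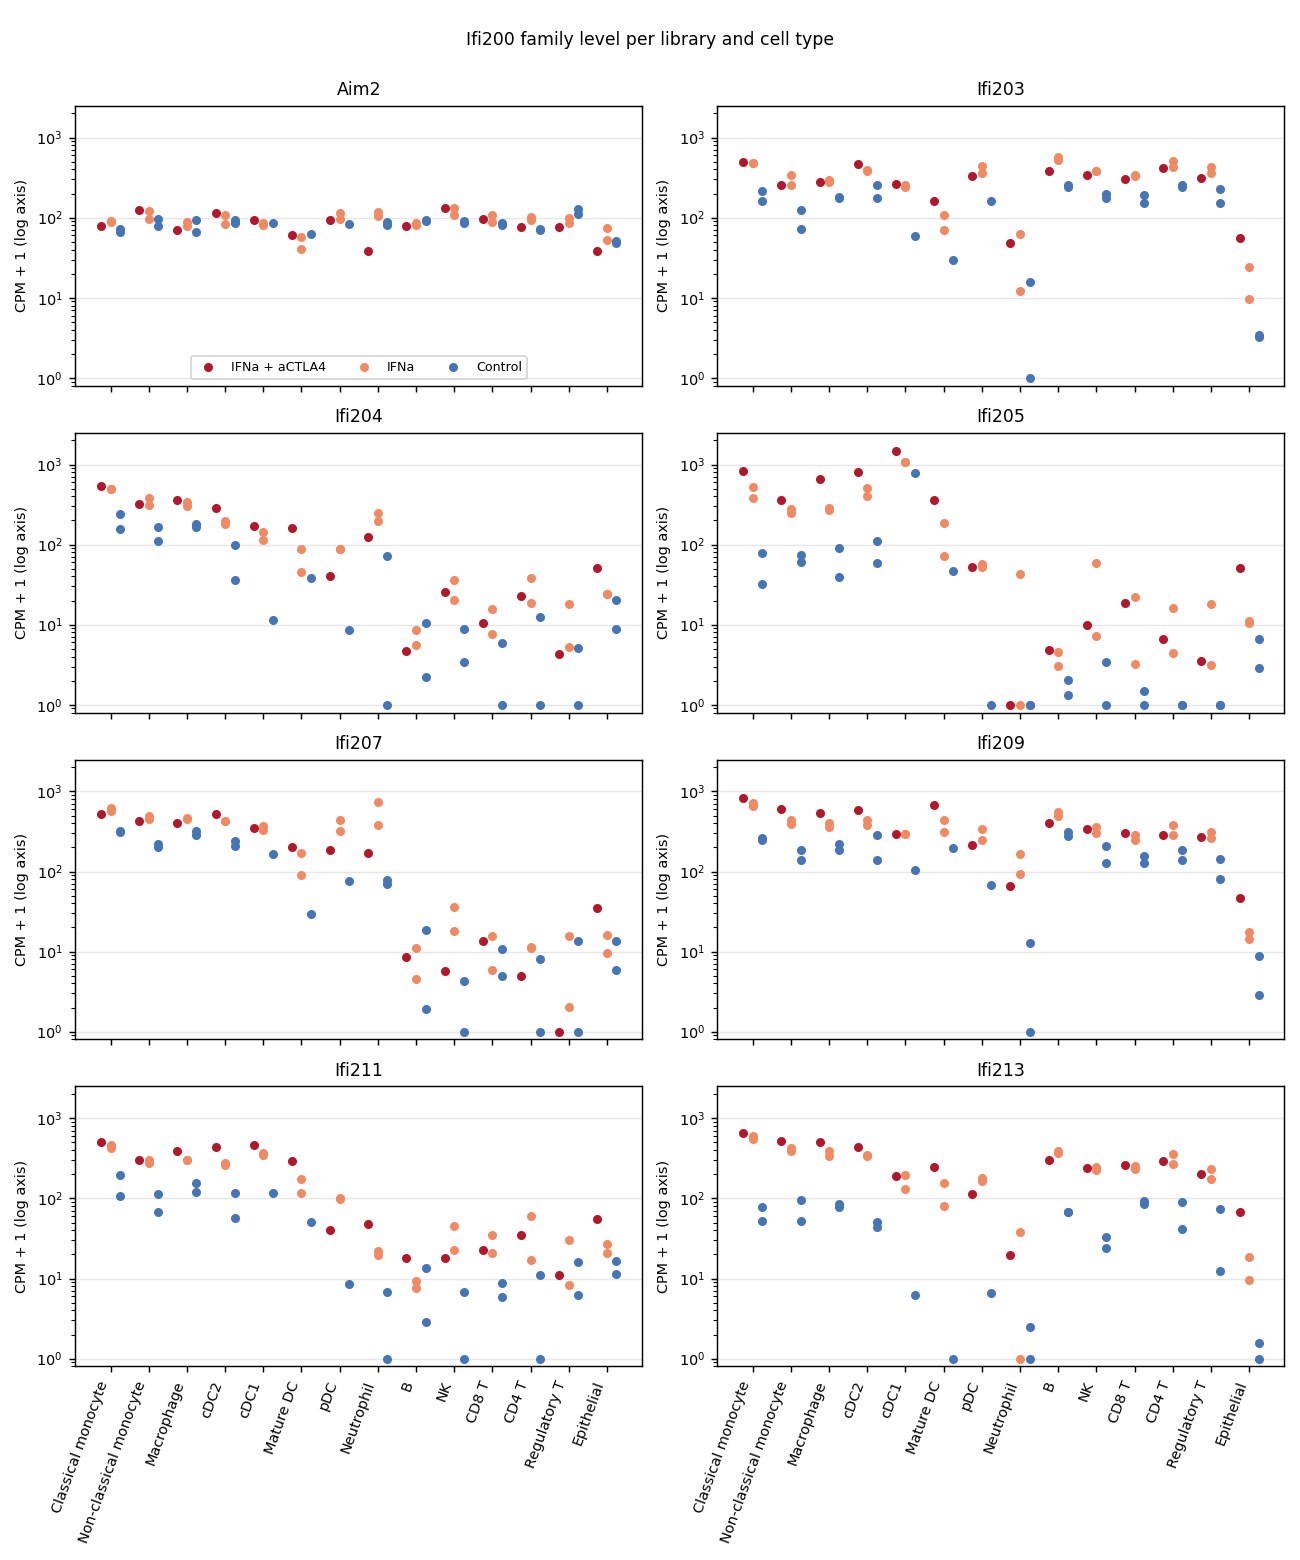
Level of each member (1 panel per gene, CPM + 1 on a log axis) in 14 cell types, 1 point per library, with the combination, IFNa LV and Control LV livers from left to right within a type. Ifi204, Ifi205, Ifi207 and Ifi211 are higher in monocytes, macrophages and cDC2 than in lymphocytes, Ifi203, Ifi209 and Ifi213 are seen in both, and Aim2 stays between 37.6 and 131 CPM throughout.

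With the IFNa vector, all members but Aim2 were called higher in classical monocytes, and Ifi213 and Ifi205 rose the most. Of the 8 members, 7 were called higher in IFNa LV than in Control LV livers, where 5.92% of all genes tested in classical monocytes were called higher (edgeR, Benjamini-Hochberg adjustment over all genes of the cell type). The median log2 fold change of the 8 was 1.41, against -0.0075 over all genes tested.

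Ifi213 had 601 and 555 CPM in the classical monocytes of the IFNa LV livers and 51.4 and 77.1 in those of the Control LV livers. The groups did not overlap, and the log2 fold change was 3.23 ± 0.21 (SE, adjusted p = 0.000117, edgeR, n = 2 each). Ifi205 had 383 and 526 CPM with IFNa LV and 31.7 and 77.7 with Control LV, a log2 fold change of 3.19 ± 0.38 (adjusted p = 0.00166). No other member had a fold change of this size in this cell type.

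Ifi204 had 494 and 489 CPM with IFNa LV and 156 and 237 with Control LV (log2 1.35 ± 0.20, adjusted p = 0.00565, edgeR). Ifi211 had 421 and 459 CPM with IFNa LV and 106 and 196 with Control LV (1.59 ± 0.26, adjusted p = 0.00844). In these, as in the next 3 genes, both IFNa LV livers lay above both Control LV livers. Ifi209 had 715 and 666 CPM with IFNa LV and 246 and 265 with Control LV (1.45 ± 0.15, adjusted p = 0.000636). Ifi203 had 484 and 476 CPM with IFNa LV and 162 and 216 with Control LV (1.37 ± 0.17, adjusted p = 0.0022). Ifi207 moved least of those called, with 617 and 564 CPM with IFNa LV against 319.8 and 315 with Control LV (0.91 ± 0.14, adjusted p = 0.00666). Without Control LV liver 11 its adjusted p was 0.0557. Aim2 had 91.1 and 87.6 CPM with IFNa LV and 65.4 and 71.1 with Control LV (0.41 ± 0.14, adjusted p = 0.108, edgeR), which did not pass. Its groups did not overlap either, and the share of all genes without overlap was not counted.

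The 8 genes together took 3806 and 3823 CPM of the classical monocyte UMIs in the IFNa LV livers and 1138 and 1454 CPM in the Control LV livers. Neutrophil markers moved with the groups in this gate. Their 8 genes summed to 196 CPM in the classical monocytes of the combination liver, 361 and 217 in those of the IFNa LV livers and 1928 and 1247 in those of the Control LV livers. Retnlg and Mmp9 were at 0 in the combination liver, IFNa LV liver 23 and Control LV liver 25, and Cxcr2 also in the combination liver. Their part in these results was not tested.

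**Figure D3:**
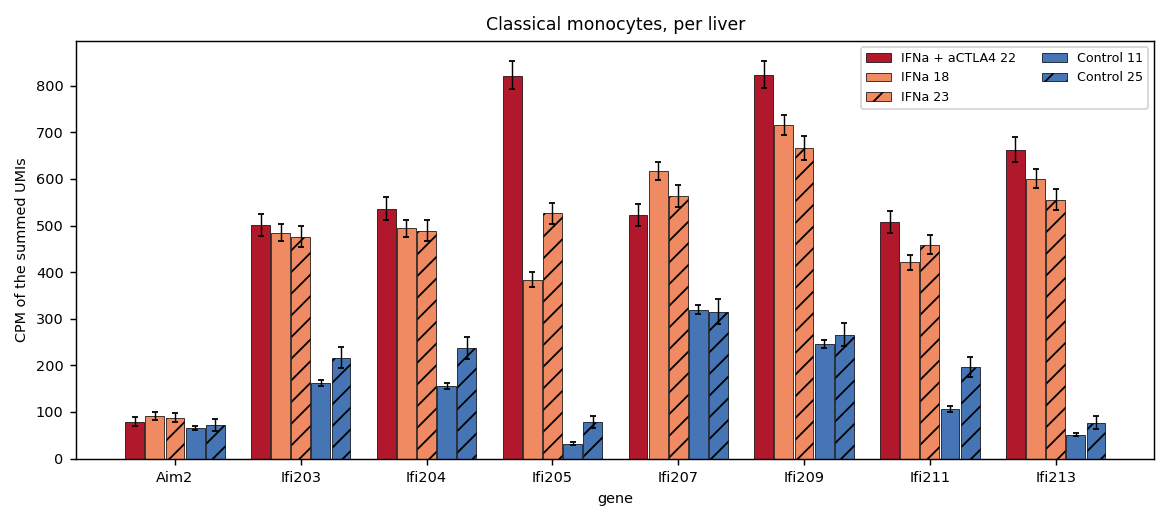
CPM of each member in classical monocytes, 1 bar per liver with an exact 95% Poisson interval for counting error, with the combination liver, the 2 IFNa LV livers and the 2 Control LV livers from left to right. For Ifi213 the bars stand at 662, then 601 and 555, then 51.4 and 77.1 CPM, and for Aim2 all 5 lie between 65.4 and 91.1 CPM.

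Ifi213 and Ifi205 also had the highest fold changes in the other phagocytes. In non-classical monocytes 7 of 8 members were called higher in IFNa LV livers, against 2.36% of all genes. Ifi213 had 421 and 387 CPM with IFNa LV and 50.9 and 94.5 with Control LV (log2 2.61 ± 0.29, adjusted p = 2.54e-06, edgeR). Ifi205 had 281 and 245 CPM with IFNa LV and 59.9 and 72.2 with Control LV (2.01 ± 0.27, adjusted p = 4.31e-05). The other 5 called genes ran from a log2 fold change of 1.14 for Ifi207 to 1.80 for Ifi211. Without Control LV liver 11 the count was 3, with 1 Control LV library left, and with stricter gates it was 4.

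In macrophages 6 of 8 members were called, against 2.63% of all genes. Ifi213 had 392 and 339.8 CPM with IFNa LV and 84.3 and 77.6 with Control LV (log2 2.10 ± 0.17, adjusted p = 0.000177, edgeR). Ifi205 had 283 and 271 CPM with IFNa LV and 90.3 and 38.2 with Control LV (1.91 ± 0.29, adjusted p = 0.00457). Ifi207 had 458 and 459.6 CPM with IFNa LV against 317 and 288 with Control LV (0.54 ± 0.16, adjusted p = 0.105) and was not called. Ifi203 was called narrowly (0.65 ± 0.15, adjusted p = 0.0449). The count of called members was 2 without Control LV liver 11 and 3 without IFNa LV liver 18. In the Macrophage gate the neutrophil markers summed to 162 and 146 CPM in the IFNa LV livers against 2596 and 230 in Control LV livers 11 and 25. Of the 8, Retnlg was at 0 in IFNa LV liver 23, and Retnlg and G0s2 in Control LV liver 25, and their part was not tested.

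In cDC2 the count was 6 of 8, against 1.65% of all genes. Ifi213 had 343 and 339 CPM with IFNa LV and 42.8 and 49.6 with Control LV (log2 2.92 ± 0.18, adjusted p = 9.33e-05, edgeR). Ifi205 had 406 and 503 CPM with IFNa LV and 111 and 57.2 with Control LV (2.35 ± 0.27, adjusted p = 0.00242). Ifi209 had 436 and 384 CPM with IFNa LV and 139 and 287 with Control LV, and the spread between the Control LV livers left it uncalled (1.01 ± 0.28, adjusted p = 0.142). The count fell to 4 when either IFNa LV liver was left out.

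The dendritic types with 1 Control LV library gave large folds for genes near 0 there. In cDC1, Ifi213 had 129 and 196 CPM with IFNa LV and 5.29 in Control LV liver 11 (log2 4.95 ± 0.44, adjusted p = 0.000444, edgeR). Ifi204 had 114 and 143 CPM with IFNa LV and 10.6 in that liver (3.62 ± 0.34, adjusted p = 0.000617). In all, 5 of 8 members were called in cDC1, against 0.819% of all genes. The filter on low counts keeps a gene that is high enough in any 1 library. Ifi213 passed it in cDC1 only through treated livers, so its call is no independent evidence of a difference.

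Ifi205 behaved differently in cDC1. It was already at 792 CPM in Control LV liver 11, against 1067 in each IFNa LV liver (log2 0.45 ± 0.19, adjusted p = 0.699, edgeR), so its level was far above that in other types while its difference between treatments was the smallest of its 13 tested.

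In pDC 7 of 8 members were called, against 1.72% of all genes. Ifi207 had 434 and 321 CPM with IFNa LV and 75.8 in Control LV liver 11 (2.32 ± 0.30, adjusted p = 2.86e-07, edgeR), and Ifi213 had 166 and 179 CPM against 5.69 (4.89 ± 0.50, adjusted p = 4.93e-10). Ifi205 had 51.9 and 56.0 CPM with IFNa LV and no UMI in that Control LV liver, which makes it at least 9.56-fold higher against a floor of 3 counts. DESeq2 called 3 of the 7 members it tested in pDC. In mature DC only Ifi213 was called (1 of 8, against 0.146% of all genes), with 78.5 and 154 CPM in the IFNa LV livers and no UMI in the Control LV liver, at least 9.36-fold higher. With stricter gates that call was lost, and with doublets kept 5 were called. The single control library in these 3 types is taken to vary as the other libraries do. In pDC, Ifi204, Ifi205, Ifi211 and Ifi213 had 7.59, 0, 7.59 and 5.69 CPM in Control LV liver 11. They, and Ifi213 in mature DC, passed the low-count filter only through treated livers. Their calls are therefore no independent evidence of a difference.

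In lymphocytes Ifi213 was the member called in B, NK and CD8 T cells. In B cells Ifi213 had 396 and 366 CPM with IFNa LV and 66.6 and 67.1 with Control LV (log2 2.60 ± 0.15, adjusted p = 0.00249, edgeR), and Ifi203 had 568 and 519 against 240.3 and 256 (1.22 ± 0.15, adjusted p = 0.022). These were the 2 of 8 members called, against 0.736% of all genes. Ifi209 had 554 and 494 CPM with IFNa LV and 274 and 307 with Control LV (0.94 ± 0.16, adjusted p = 0.0748). Of the 2 calls, 1 was left when either IFNa LV liver was left out, and with doublets kept 4 members were called. Ifi204, Ifi205, Ifi207 and Ifi211 stayed at 17.8 CPM or less in the B cells of every library.

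In NK cells 4 of 8 members were called, against 0.816% of all genes. Ifi213 had 223 and 247 CPM with IFNa LV and 31.9 and 23.3 with Control LV (log2 2.95 ± 0.21, adjusted p = 0.000155, edgeR). Ifi203 (1.05 ± 0.15, adjusted p = 0.0076) and Ifi209 (1.12 ± 0.21, adjusted p = 0.0428) were also higher. Ifi204 was called at a low level, 19.5 and 35.5 CPM with IFNa LV against 2.46 and 7.76 with Control LV (2.95 ± 0.58, adjusted p = 0.047). Mononuclear phagocyte markers in the NK gate summed to 473 and 932 CPM in the IFNa LV livers and 132 and 101 in the Control LV livers, with Mpeg1 of the 6 at 0 in Control LV liver 25, and their part in the Ifi204 value was not tested. No NK call was left without Control LV liver 11, 1 was left without Control LV liver 25, 2 were left with stricter gates or RLE, and 7 members were called without IFNa LV liver 18 or with doublets kept.

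In CD8 T cells the single call was Ifi213 (1 of 8, against 0.323% of all genes), with 256 and 234 CPM in the IFNa LV livers and 92.9 and 84.3 in the Control LV livers (log2 1.48 ± 0.22, adjusted p = 0.0372, edgeR). It was lost when either Control LV liver was left out and with stricter gates. In CD4 T cells Ifi213 had 354 and 269 CPM with IFNa LV and 90.0 and 40.1 with Control LV (2.03 ± 0.35, adjusted p = 0.0685), and 0 of 7 members were called against 0.152% of all genes. In regulatory T cells Ifi213 had 232 and 175 CPM with IFNa LV and 72.5 and 11.4 with Control LV (1.94 ± 0.43, adjusted p = 0.267), with 0 of 8 called against 0.0515%. Which T cell members passed depended on the libraries: without IFNa LV liver 18, 3 were called in CD8 T cells, 2 in CD4 T cells and 1 in regulatory T cells, and without Control LV liver 11, 3 in regulatory T cells.

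In neutrophils 4 members passed the filter on low counts, and Ifi207 and Ifi209 were called, against 2.45% of all genes. Ifi207 had 729 and 375 CPM with IFNa LV and 77.8 and 68.2 with Control LV (log2 2.88 ± 0.48, adjusted p = 0.00387, edgeR). Ifi209 had 93.4 and 167 CPM with IFNa LV and 11.7 and 0 with Control LV (adjusted p = 0.0403, edgeR), on 33 UMIs against 8. The low-count filter can be passed by 1 library. Ifi209 passed it only through IFNa LV, where it was high, and Ifi207 only through treated livers. Neither call is therefore independent evidence of a difference. Without IFNa LV liver 18, which leaves the 15 neutrophils of liver 23, neither was called. In epithelial cells none of the 8 was called, against 0.00838% of all genes. Ifi213 had 8.6 and 17.4 CPM with IFNa LV and 0.546 and 0 with Control LV there (adjusted p = 0.0826), and 3 members were called without IFNa LV liver 18.

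Across the 14 cell types, 48 of the 107 tests of a member were called higher in IFNa LV livers, against 1.38% of all gene and cell type pairs. None was called lower, and 84 were at an unadjusted p under 0.05 (edgeR). Of all genes, the share at that level ran from 433 of 11130 in CD8 T cells to 2623 of 11079 in classical monocytes. DESeq2 called 41. Without Control LV liver 11, the larger of the control libraries, 25 were called, since cDC1, mature DC and pDC could then not be fitted and fewer members passed elsewhere. A set of 23 of the 48 calls held under every alternative that gave the test an adjusted p. DESeq2 gave none for some tests, and this was not counted as a loss. In pDC it called 3 of the 7 members it tested, fewer than the set holds there. Among them was Ifi213 in classical and non-classical monocytes, macrophages, cDC2, cDC1, pDC and B cells. Ifi205 in both monocyte types, macrophages, cDC2 and pDC was another. Of these, Ifi213 in cDC1 and pDC and Ifi205 in pDC passed the low-count filter only through treated livers. The types cDC1, mature DC and pDC could also not be fitted without IFNa LV liver 18 or 23, and Control LV liver 25 gave them no sum. Their calls were therefore not tried against the loss of an IFNa LV or Control LV liver. Ifi213 was called in 10 of 13 types tested and Aim2 in 0 of 14.

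Aim2 was the only member called in no cell type. Its log2 fold change between IFNa LV and Control LV ran from -0.42 to 0.43 over the 14 types, with a lowest adjusted p of 0.108 (edgeR). B cells had 84.6 and 81.0 CPM with IFNa LV and 90.7 and 91.2 with Control LV, macrophages 76.7 and 86.8 against 66.1 and 93.6, and regulatory T cells 98.4 and 84.0 against 111 and 126. NK cells had 106 and 131 CPM against 85.9 and 89.3. The Aim2 fold change was above 0 in 10 of the 14 types. Both IFNa LV livers lay above both Control LV livers in 7 of the 11 types with 2 libraries per group, the same count as for Ifi207. The share of all genes that did so was not counted. Since the types come from the same livers, they are not separate trials, and neither count is evidence of a rise. A log2 fold change near 0 with an adjusted p over the threshold does not show equal levels: in classical monocytes the estimate was 0.41 ± 0.14.

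The size of the Ifi213 response was compared between cell types by the interaction of type and treatment, with classical monocytes as the base. In CD8 T cells the log2 fold change of Ifi213 was smaller than in classical monocytes, with a difference of -1.75 ± 0.32 (adjusted p = 0.00907, edgeR), where 0.705% of all genes differed in their effect. This was the only member called of 40 comparisons, 8 members in 5 types. Without IFNa, Ifi213 stood at 92.9 and 84.3 CPM in the CD8 T cells and 51.4 and 77.1 CPM in the classical monocytes of livers 11 and 25. For macrophages the difference was -1.12 (adjusted p = 0.304), for B cells -0.62 (0.415), for NK cells -0.18 (0.964) and for neutrophils 1.17 (0.883). No member was called in those types, where 0.0392%, 0.807%, 0.227% and 0.211% of all genes were.

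In the combination liver 48 of 107 tests were called higher than in Control LV livers, against 2.03% of all gene and cell type pairs. None was called lower, and 79 were at an unadjusted p under 0.05 (edgeR). Of all genes, the share at that level ran from 551 of 11130 in CD8 T cells to 2854 of 11079 in classical monocytes. Without Control LV liver 11 there were 26, again with those 3 dendritic types not fitted, and 25 of the 48 calls held under every alternative that could be fitted. The same 3 types could also not be fitted without IFNa LV liver 18 or 23, so their calls were not tried against those losses. A call to which DESeq2 gave no adjusted p was counted as held. In pDC DESeq2 called 1 of the 7 members it tested, fewer than the set of held calls has there. Both sets of calls share the Control LV livers. The combination arm is 1 liver, whose spread was taken from the other groups. In cDC1, mature DC and pDC it was set against 1 Control LV library, with the spread from the 2 IFNa LV livers alone.

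In classical monocytes 7 of 8 members were called in the combination liver, against 8.18% of all genes. Ifi205 had 822 CPM there against 31.7 and 77.7 in the Control LV livers (log2 4.16 ± 0.42, adjusted p = 0.000515, edgeR). Ifi213 had 662 CPM against 51.4 and 77.1 (3.54 ± 0.24, adjusted p = 8.75e-05). Ifi209 had 824 CPM against 246 and 265 (1.82 ± 0.17, adjusted p = 0.000311). All 7 lay above both control livers, and so did Aim2, which was not called (78.4 CPM against 65.4 and 71.1). The share of all genes that did so was not counted.

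Non-classical monocytes also gave 7 of 8 (2.39% of all genes), with Ifi213 at 526 CPM against 50.9 and 94.5. Without Control LV liver 11, or with stricter gates, the count there was 3. Macrophages gave 5 of 8 (4.09%), with Ifi205 at 653 CPM against 90.3 and 38.2 (log2 3.23 ± 0.33, adjusted p = 0.000298, edgeR). For cDC2 the count was 7 (2.97%), with Ifi205 at 813 CPM against 111 and 57.2. For cDC1 it was 5 (0.873%), with Ifi205 at 1461 CPM against 792 and not called (0.91 ± 0.22, adjusted p = 0.11). In pDC 7 were called (1.71%), 1 with DESeq2 and 4 with doublets kept. Here too Ifi204, Ifi205, Ifi211 and Ifi213 in pDC and Ifi213 in cDC1 passed the low-count filter only through treated livers.

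In mature DC 6 of 8 members were called in the combination liver (1.76% of all genes), against 1 in the IFNa LV livers. With doublets kept the counts were 7 and 5. The combination test sets 1 library against 1 here, so the difference in counts is not itself a tested result. Ifi209 had 677 CPM in mature DC of the combination liver and 197 in Control LV liver 11 (log2 1.82 ± 0.36, adjusted p = 0.0153, edgeR). Ifi205 had 363 CPM against 45.2 (3.05 ± 0.65, adjusted p = 0.0245). With stricter gates none of these 6 was called. Among them, Ifi213 had no UMI in the Control LV library and passed the low-count filter only through treated livers. Between the combination and IFNa LV livers no member passed in mature DC, with Ifi204 and Ifi205 nearest (adjusted p = 0.0825 each), and both passed with sums of at least 30 cells (0.0347 and 0.0279).

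Lymphocytes of the combination liver had 1 call in B cells (Ifi213, 303 CPM against 66.6 and 67.1; 2.11% of all genes) and 1 in NK cells (Ifi213, 238 CPM against 31.9 and 23.3; 0.738%). No member was called in CD8 T cells (0.458%), CD4 T cells (0.185%) or regulatory T cells (0.103%). For Ifi213 in CD8 T cells the values were 258 CPM against 92.9 and 84.3 (adjusted p = 0.054, edgeR). Neutrophils had no call (1.15%), on 12 cells of the combination liver. With either IFNa LV liver left out of the fit, 3 members were called in CD8 T cells, and without Control LV liver 11, 3 in regulatory T cells and 0 in NK cells.

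Epithelial cells had 2 calls in the combination liver, Ifi203 and Ifi213, against 0.344% of all genes. Ifi203 had 54.7 CPM in the combination liver against 2.46 and 2.25 in the Control LV livers (log2 4.37 ± 0.76, adjusted p = 0.0454, edgeR). Ifi213 rested on 16 UMIs against 2, a ratio of 153 with an exact 95% interval of 36.1 to 1375 for counting error. Only 24 epithelial cells came from that liver. Both genes passed the low-count filter only through treated livers, so neither call is independent evidence of a difference. In the Epithelial gate, mononuclear phagocyte markers summed to 678 CPM in the combination liver, 176 and 381 in the IFNa LV livers and 211 and 574 in the Control LV livers, with all 6 detected, and their part was not tested. Neither call was left without Control LV liver 11, with stricter gates or with doublets kept, and RLE kept 1. Without IFNa LV liver 18 or 23, which share the estimate of spread, 6 and 5 members were called.

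Set directly against the IFNa LV livers, the combination liver differed in 1 of 107 tests, against 0.582% of all gene and cell type pairs. Ifi207 in pDC had 183 CPM in the combination liver and 434 and 321 in the IFNa LV livers (log2 -1.02 ± 0.27, adjusted p = 0.0466, edgeR). At an unadjusted p under 0.05 there were 26 of 107 (edgeR). Of all genes, the share at that level ran from 201 of 11130 in CD8 T cells to 587 of 2696 in neutrophils. Ifi205 in macrophages had 653 CPM in the combination liver and 283 and 271 in the IFNa LV livers (1.32 ± 0.32, adjusted p = 0.0719), and in classical monocytes 822 against 383 and 526 (0.97 ± 0.40, adjusted p = 0.458). Neither passed. For macrophages the Ifi205 difference lay between 1.28 and 1.49 under the alternatives. It did not pass with DESeq2 (adjusted p = 0.83), RLE (0.0609), doublets kept (0.0503) or sums of at least 30 cells (0.0719), and did pass with no filter (3.37e-07), with stricter gates (adjusted p = 0.0428) and with each of livers 11, 25, 18 and 23 left out (0.0405, 0.0241, 0.0013 and 0.00331). The Ifi207 difference in pDC was not called with DESeq2, with stricter gates, or without Control LV liver 11, where pDC have no control library.

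**Figure D4:**
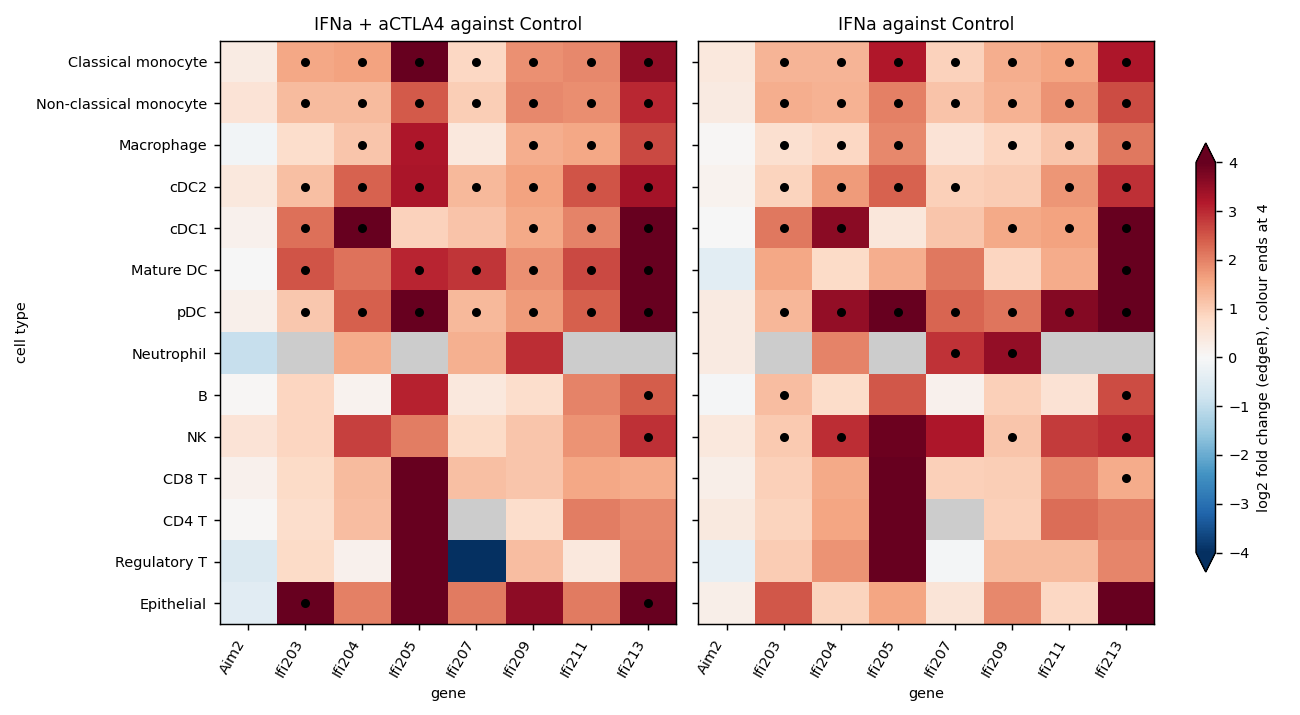
Log2 fold change of each member (columns) in each cell type (rows), combination against Control LV on the left and IFNa LV against Control LV on the right. A dot marks an edgeR adjusted p under 0.05, grey marks a gene that was not tested, and the colour scale ends at 4. Ifi213 carries a dot in 10 cell types in each panel and Aim2 in none, and classical monocytes, non-classical monocytes and pDC carry 7 dots each in both panels.

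The share of single cells with at least 1 UMI moved with the summed levels. Of the classical monocytes, 88.6% had an Ifi205 UMI in the combination liver, 73.2% and 85.0% in the IFNa LV livers and 15.3% and 29.2% in the Control LV livers. With each cell thinned to 2000 UMIs the shares were 66.0%, then 40.2% and 55.2%, then 4.61% and 8.33%. For B cells, which should lack Ifi205, the unthinned shares were 1.45%, then 0.900% and 1.27%, then 0.130% and 0.658%. For Ifi213 in classical monocytes the thinned shares were 66.6% in the combination liver, 65.0% and 60% in the IFNa LV livers and 8.63% and 14.2% in the Control LV livers. The Ifi213 and Ifi205 differences were thus present in the share of cells with a UMI at matched depth as well as in the sums.

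The cluster holds 5 further genes in the matrices. In classical monocytes Ifi206 had 277.5 CPM in the combination liver, 284 and 276 in the IFNa LV livers and 30.9 and 44.8 in the Control LV livers (IFNa LV log2 2.97 ± 0.19, adjusted p = 0.000117, edgeR). Mndal had 559 CPM, then 563 and 505, then 188 and 192 (1.5 ± 0.14, adjusted p = 0.00052). Ifi214 had 22 CPM, then 22.6 and 19.6, then 1.2 and 0.565 (4.29 ± 0.30, adjusted p = 0.000141). All 3 tested were called in classical monocytes and in macrophages. Ifi208 was highest in CD8 and CD4 T cells, at 37.0 and 34.3 CPM over the pooled Control LV libraries. NK cells had 8.11 CPM, B cells 2.15 and regulatory T cells 0.814. By liver, CD8 T cells had 35.4 CPM of Ifi208 in the combination liver, 62.7 and 28.5 in the IFNa LV livers and 38.6 and 28.9 in the Control LV livers. Ifi202b, whose mouse product antagonises AIM2, was near 0 in the cell types tested.

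Genes that work with AIM2 were read from lists of the pathway. Of 8 genes of the AIM2 inflammasome, 3 were called higher with IFNa LV in classical monocytes, against 5.92% of all genes, and none lower, with a median log2 fold change of 0.49. Il18, the cytokine matured by caspase-1, had 1.37 ± 0.14 (adjusted p = 0.000671, edgeR), Casp4, encoding caspase-11, which senses lipopolysaccharide, 1.05 ± 0.15 (0.00413), and Gsdmd, which forms the pore, 0.57 ± 0.14 (0.037). Pycard had -0.21 ± 0.14 (adjusted p = 0.427). In the combination liver 7 of 8 were called higher, against 8.18% of all genes, with a median of 1.10, among them Il18 (1.91), Casp4 (1.70), Gsdmd (1.27) and Ninj1 (1.06), which acts in membrane rupture.

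Of the 3 genes upstream of AIM2 that were followed, Irf1 encodes a transcription factor and Gbp2 and Gbp5 encode guanylate-binding proteins that expose bacterial DNA. A further gene planned for this list, Gm12250, was not followed. All 3 were called in classical monocytes with IFNa LV, against 5.92% of all genes, Gbp5 at 1.66 ± 0.31, Gbp2 at 1.57 ± 0.36 and Irf1 at 0.98 ± 0.21 (adjusted p = 0.0135, 0.0317 and 0.0247, edgeR). In the combination liver all 3 were called again, against 8.18% of all genes, at 3.92 ± 0.35, 3.80 ± 0.41 and 2.71 ± 0.24. Set against the IFNa LV livers, the combination liver was higher for Gbp5 (2.26 ± 0.32, adjusted p = 0.029, edgeR) and Irf1 (1.73 ± 0.24, adjusted p = 0.0266) in classical monocytes. Of the 8 family members 0 were called in that comparison and cell type. There 70 of all 11079 genes were called, so 0 of 8 does not set the family apart.

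Of the other DNA-sensing genes, 11 were tested in classical monocytes and 3 were called higher with IFNa LV, against 5.92% of all genes: Zbp1, a sensor of Z-form nucleic acid (1.99 ± 0.16), Tlr9, the endosomal DNA receptor (1.56 ± 0.22), and Cgas, which makes the STING ligand (1.02 ± 0.19). Their adjusted p were 0.000229, 0.00413 and 0.0139 (edgeR). In the combination liver 7 of 11 were called, against 8.18% of all genes, with Zbp1 at 2.67 ± 0.19 and Samhd1, a nucleotide hydrolase, at 1.24 ± 0.17. The median of the list was 0.44 with IFNa LV and 0.87 in the combination liver. In macrophages the inflammasome list had 4 of 8 called in the combination liver, against 4.09% of all genes, and 1 of 8 with IFNa LV, against 2.63%.

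**Figure D5:**
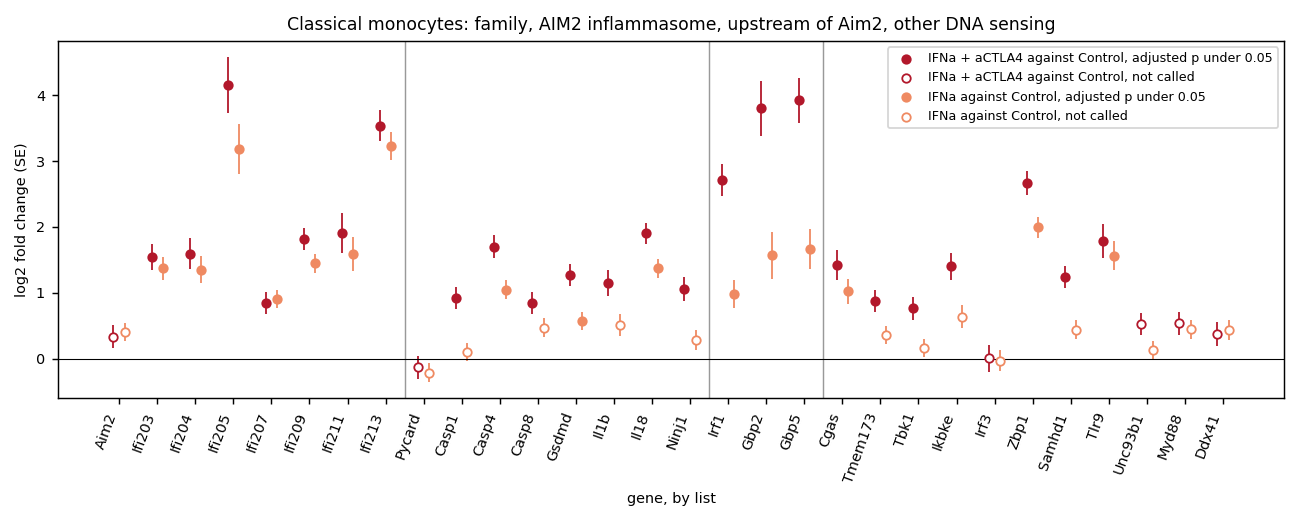
Log2 fold change against Control LV in classical monocytes, with SE bars, for the family, the AIM2 inflammasome, the genes upstream of AIM2 and other DNA-sensing genes, combination liver and IFNa LV livers. Ifi213 lies at 3.54 in the combination liver and 3.23 with IFNa LV, Gbp5 at 3.92 and 1.66, and Aim2 at 0.34 and 0.41.

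Each member was set against all 9048 genes with a mean of at least 10 CPM over 71 sums of a cell type in a library. These sums share libraries and cells of a type, so the correlations are descriptions. Ifi207 was most like Gm21188 (Pearson r = 0.962), Mpeg1 (0.938), a macrophage pore protein gene, and Cd300c2 (0.934). Ifi204 was most like Gm21188 (0.905), Gm36161 (0.883) and Oas1g (0.880). Ifi205 was most like Phf11d (0.870), Cxcl9 (0.869) and Spon1 (0.865), and Ifi211 like Phf11d (0.906), Fcgr1 (0.877) and Aif1 (0.874). For the broad members, Ifi203 was nearest to 9930111J21Rik2 (0.903), Zup1 (0.877) and Sp100 (0.869). Ifi209 was nearest to Zup1 (0.902), Smchd1 (0.884) and H2-M3 (0.861), and Ifi213 to A330040F15Rik (0.935), BC147527 (0.822) and Phf11b (0.811). Aim2 was nearest to Arih1 (0.852) and Xiap (0.851), neither of which was among the nearest genes of another member.

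Within the family the correlations were higher within each of the first 2 patterns than between them. Ifi205 and Ifi211 correlated at r = 0.914, Ifi204 with Ifi207 at 0.877 and Ifi204 with Ifi211 at 0.876, while Ifi203 correlated with Ifi209 at 0.892 and Ifi209 with Ifi213 at 0.815. Between a gene of the first pattern and one of the second, r ran from 0.079 for Ifi203 with Ifi207 to 0.521 for Ifi209 with Ifi211. Aim2 ranged from 0.09 to 0.52 with the other 7 members (n = 71 sums throughout).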

How the data were processed

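Droplet single-cell 3′ RNA libraries of 5 livers were analysed; the T cell receptor libraries of the same cells were not used here. The authors deposited UMI counts per gene and cell barcode, without normalization. The submitters' processing notes name Cell Ranger 7.0.1 and build mm10, and whether intron reads were counted is not given in the sources used here. Barcodes with under 200 genes or over 15% of UMIs from mitochondrial genes were dropped, likely doublets were removed per library against simulated doublets (at 0.8% per 1000 cells), and cells were gated by marker genes, leaving out cells that passed gates of more than 1 lineage. A macrophage needed at least 10 UMIs of the C1q genes. Counts were summed per library and cell type, with at least 10 cells a sum.

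The groups were fitted together per cell type with edgeR 4.0.16 in R 4.3.3 (filterByExpr, TMM, quasi-likelihood test), with Benjamini-Hochberg adjustment over all genes of a cell type and a threshold of 0.05. With 1 combination library, the filter keeps a gene that is high enough in any 1 library. A gene near 0 with Control LV can thus enter through treated livers. DESeq2 1.42.0 was an alternative, beside RLE scaling, no filter, stricter gates by 1 marker, doublets kept, sums of at least 30 cells and each library left out. On simulated counts of classical monocytes with known changes, the group test recovered 94 of 98 genes changed by 2 log2 units and 62 of 100 changed by 1, among 10878 genes. In CD8 T cells it recovered 86 of 94 and 32 of 97 among 10988 genes, and in NK cells 91 of 100 and 29 of 100 among 10104. Floors of 3 counts and 95% intervals (exact Poisson for counts) cover counting error only.

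The members, lists and tests were chosen with earlier results of these data known. Named genes are all members in every gated type, the other cluster genes, up to 4 genes per pathway list by smallest adjusted p, and the 3 genes most correlated with each member, of which 1 is not reported here; Pycard was named after its value was seen. Promoter letters came from RefSeq, and positions from GENCODE M21.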

Additional observations from a re-analysis of the deposited data

Results flagged for a closer look

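The response of Ifi213 to the IFNa vector differed between CD8 T cells and classical monocytes, by an interaction test of the difference itself. The log2 fold change in CD8 T cells minus that in classical monocytes was -1.75 ± 0.32 (adjusted p = 0.00907, edgeR). Ifi213 was higher with IFNa LV in both types. The difference was -1.79 with RLE scaling, -1.72 with stricter gates and -1.60 with doublets kept, and it was called under each. Mononuclear phagocyte markers in the CD8 T gate summed to 197 and 426 CPM in the IFNa LV livers and 303 and 159 in the Control LV livers, with Csf1r of the 6 at 0 in liver 25, and their part in the result was not tested.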

How the results depend on the processing

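Of 107 tests of a member, 48 were called with IFNa LV against Control LV, and 37 to 70 under the alternatives that kept Control LV liver 11 (41 with DESeq2, 70 with no filter). Leaving out 1 library gave 25 to 46, the lowest without Control LV liver 11, which leaves 1 small control library. Of the combination against Control LV, 48 were called, 37 to 71 under the same alternatives and 26 to 49 with 1 library left out, the lowest again without liver 11. For the combination against IFNa LV, 1 was called, 2 with RLE, 0 with DESeq2, 14 with no filter, 5 with doublets kept, 3 with sums of at least 30 cells and 3 to 6 with 1 library left out; these counts move with the fit and the cause was not tested. Against Control LV, the types cDC1, mature DC and pDC could not be fitted without liver 11, 18 or 23. The interaction gave 1 call under each alternative run. No paired analysis was possible because the groups share no replicate number.

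Of the member tests followed singly, which are not all 107 and none of the combination against IFNa LV, those that changed direction were of Aim2, called in no cell type. With IFNa LV its log2 fold change was 0.0443 in mature DC, 0.146 in cDC1, -0.163 in cDC2 and -0.0447 in pDC with stricter gates, and 0.063 in cDC1 with doublets kept. With 1 library left out it ran from -0.2445 to 0.2358 in macrophages and from -0.0851 to 0.29 in cDC2. In the combination it was 0.0475 in mature DC with no filter, 0.114 with stricter gates and 0.0592 with doublets kept, -0.341 in pDC with stricter gates, and -0.3846 to 0.0834 in macrophages with 1 library left out. Few cells limit the rarer types.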
